A study of Mus musculus with 6 samples.

Results

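The genes described here encode the enzymes that make, modify and cleave phosphoinositides, the phosphorylated forms of the membrane lipid phosphatidylinositol, together with the kinases that consume diacylglycerol. They were taken as the genes whose symbol begins with Pik3, Inpp, Pip4k, Pip5k, Dgk, Plcb, Plcd, Plce, Plcg, Plch or Plcl, which gave 59 of the 24411 genes listed in the series. Of these, 58 encode proteins of the families and 1, Dgkeos, is an RNA annotated opposite to Dgke. Monocytes of the bone marrow of the inbred mouse strain C57BL/6 had been sorted as LFA1-hi Itgam-hi or LFA1-lo Itgam-lo and grown into macrophages. Each sort gave 3 libraries, and the groups are called LFA1-hi and LFA1-lo here. LFA1 and the product of Itgam are adhesion receptors of leukocytes. Both groups had been cultured in the same way for 7 days with 10% serum and 20 ng/ml of macrophage colony-stimulating factor (M-CSF), which drives monocytes to become macrophages, with fresh medium on day 4. The sources used here give neither age nor sex of the mice, nor do they tell whether the libraries of a sort stem from different mice or dishes. P-values therefore measure the spread between these libraries, which may be technical.

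Phosphoinositides mark membranes and carry signals. Class I phosphoinositide 3-kinases (PI3K), pairs of a catalytic and a regulatory subunit, turn phosphatidylinositol bisphosphate of the plasma membrane into the trisphosphate, which recruits the kinase Akt and exchange factors that drive survival, growth and migration of macrophages, and the M-CSF receptor is one of the receptors that activates them. Inositol phosphatases such as SHIP1 remove phosphates again, phosphatidylinositol phosphate kinases supply the bisphosphate, and phospholipases C cleave it into diacylglycerol and inositol trisphosphate, which releases calcium. Diacylglycerol kinases end the diacylglycerol signal by converting it to phosphatidic acid.

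Libraries held 15191262 to 17614509 expected counts in LFA1-hi and 16404922 to 17115544 in LFA1-lo, and the 59 genes together took 0.373% to 0.386% of them in LFA1-hi and 0.419% to 0.449% in LFA1-lo. LFA1-lo replicate 2 differed from the rest of its group for several of these genes, and values without it are given where leaving it out changed a call or moved a fold change by over 1.5 times. Levels are given in TPM, the authors' measure of transcript abundance, which is corrected for gene length and depth and so allows genes to be compared with each other. Differences are log2 fold changes of LFA1-hi minus LFA1-lo from edgeR's quasi-likelihood test on the counts of all genes, and a gene is said to rise, fall or be called where the p-value adjusted over all tested genes was under 0.05. In bulk libraries such as these, fewer cells with a transcript and less of it per cell cannot be told apart.

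Phosphoinositide genes were lower more often than higher in LFA1-hi macrophages. Of the 59 genes 47 passed the filter on low counts and were tested. Of these, 16 fell (34.0%) and 4 rose (8.51%) in LFA1-hi, beside 15.6% of all 11692 tested genes that fell and 16.1% that rose. Their median log2 fold change was −0.28, beside −0.0047 over all tested genes, and it stayed between −0.33 and −0.20 over the alternatives. The point estimate was below 0 for 37 of the 47, beside 50.4% of all tested genes. Either way, 20 of the 47 (42.6%) were called, beside 31.7%. In 24 of the 47 the 3 LFA1-hi values did not overlap the 3 LFA1-lo values on the CPM scale, 5 above and 19 below, beside 47.8% of all tested genes (24.8% above, 22.9% below). Of the 20 called genes 7 differed by at least 1.5-fold and 4 (20%) by at least 2-fold, beside 28.8% of all called genes at 2-fold. The median absolute log2 fold change was 0.40 over the 47 tested genes, beside 0.30 over all tested genes. For 15 of the 27 genes that were not called, neither end of the 95% interval reached a 1.5-fold change. Without LFA1-lo replicate 2, 20 fell and 4 rose, and over the fits that left out any other library 8 to 13 fell and 1 to 4 rose. With library totals as the scale, 12 of these genes fell and 4 rose, beside 1471 of all genes that fell and 2294 that rose, against 1822 and 1883 in the main test. The calls of 9 genes held under every alternative tried, namely Pik3r5, Pik3cd, Pik3r1, Pik3ap1, Inpp5k, Inppl1, Pip4k2a, Plcb2 and Dgkg, and calls lost without a library, with another scaling, filter or tool, or on log2 TPM are given gene by gene.

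**Figure D1:**
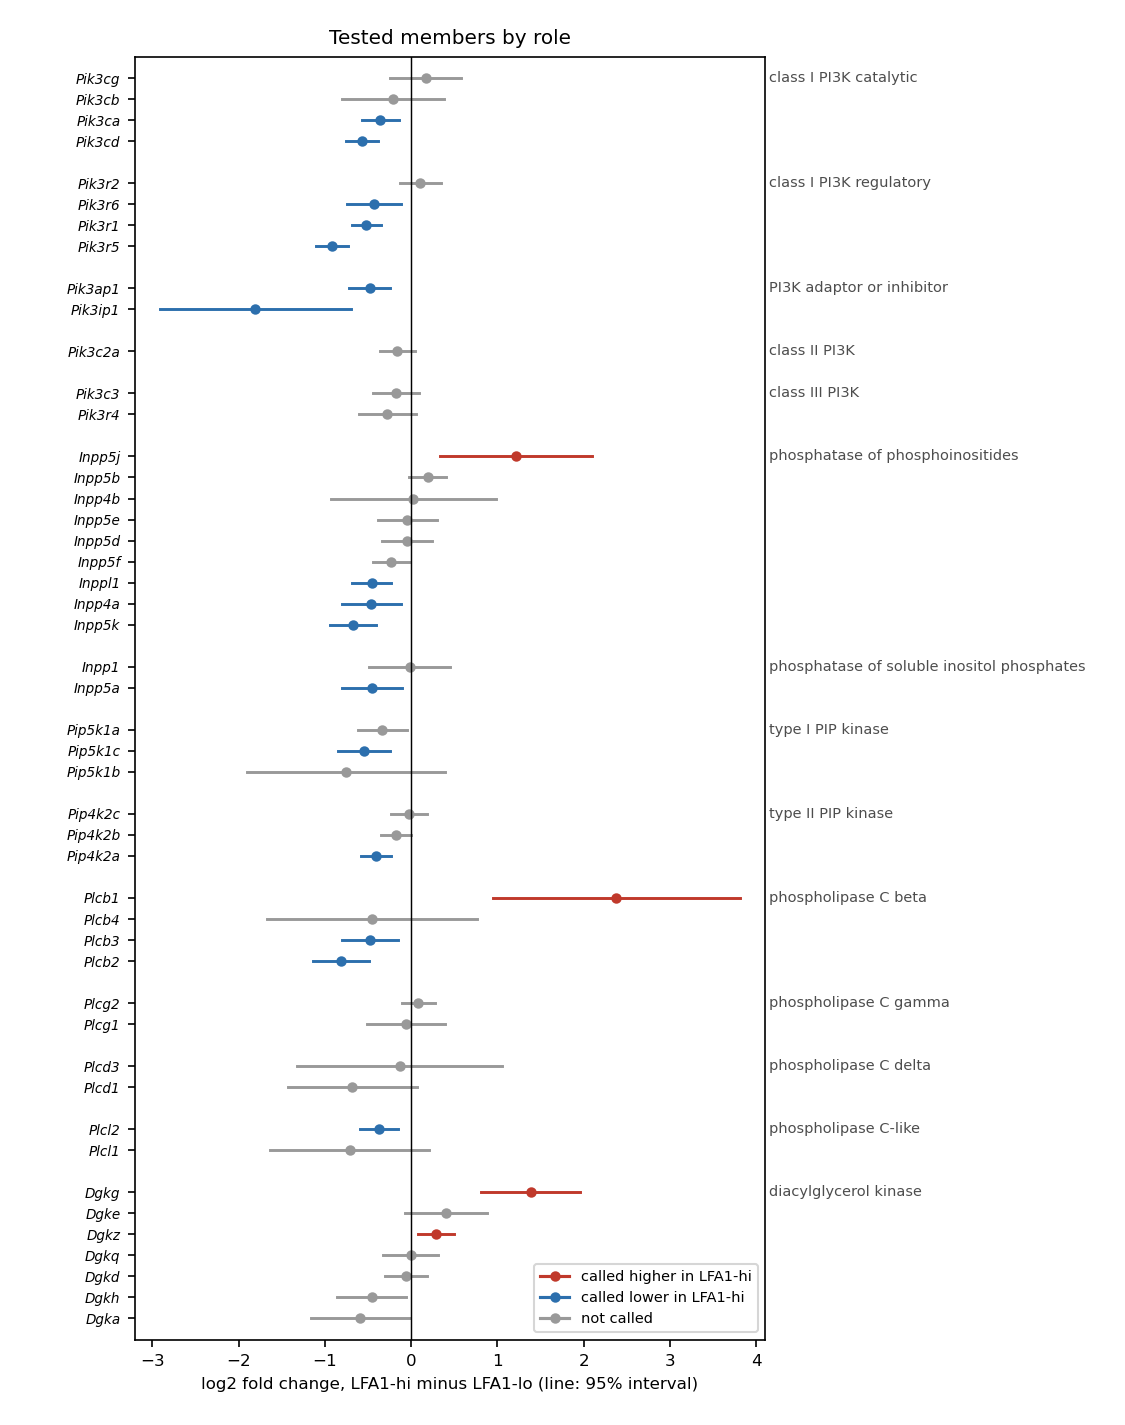
Log2 fold change of LFA1-hi minus LFA1-lo (x axis) for the 47 tested genes, arranged by role down the page; points are edgeR estimates, lines their 95% intervals, red marks called higher, blue called lower and grey not called. The 4 red points are Inpp5j, Plcb1, Dgkg and Dgkz, and the 16 blue points are spread over PI3K subunits, phosphatases, phosphatidylinositol phosphate kinases and phospholipases, with none among the diacylglycerol kinases.

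The 7 genes that were called with at least 1.5-fold difference were Plcb1, Dgkg and Inpp5j, which rose, and Inpp5k, Plcb2, Pik3r5 and Pik3ip1, which fell. RefSeq promoter sequences of build GRCm38.p6, running from 250 bases before an annotated transcript start to 50 after it, were at hand for 53 of the 59 genes and for 6 of these 7. A gene can have several starts: the start used is the outermost one of the span given here for Plcb1 and Pik3r5, and lies inside the span for Dgkg, Inpp5k, Plcb2 and Pik3ip1. The sequences are shown to let the start regions of genes that moved in opposite directions be compared. Capitals mark matches on either strand to the core of the site of PU.1, the transcription factor that directs macrophage genes (GAGGAA), the GC box (GGGCGG), the CCAAT box (CCAAT), the TATA box (TATAAA), the AP-1 site (TGANTCA), the cyclic AMP response element (TGACGTCA) and the site of Egr factors (GCGNGGGCG). A GC box within an Egr match shares its letters with it.
Plcb1, chr2:134785914-134786213, plus strand: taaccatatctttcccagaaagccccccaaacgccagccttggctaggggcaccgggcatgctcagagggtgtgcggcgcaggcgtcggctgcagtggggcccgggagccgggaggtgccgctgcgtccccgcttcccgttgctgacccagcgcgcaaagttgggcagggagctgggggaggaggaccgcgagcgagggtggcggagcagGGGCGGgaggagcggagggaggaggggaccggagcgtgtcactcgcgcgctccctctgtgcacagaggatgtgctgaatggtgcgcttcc
Dgkg, chr16:22657182-22657481, minus strand: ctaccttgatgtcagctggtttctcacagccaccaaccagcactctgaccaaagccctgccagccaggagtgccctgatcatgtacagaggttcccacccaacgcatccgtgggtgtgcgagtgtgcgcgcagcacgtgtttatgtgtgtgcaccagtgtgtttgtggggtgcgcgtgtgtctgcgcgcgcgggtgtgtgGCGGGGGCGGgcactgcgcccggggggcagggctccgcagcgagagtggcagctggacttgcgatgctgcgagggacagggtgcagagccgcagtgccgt
Inpp5k, chr11:75630770-75631069, plus strand: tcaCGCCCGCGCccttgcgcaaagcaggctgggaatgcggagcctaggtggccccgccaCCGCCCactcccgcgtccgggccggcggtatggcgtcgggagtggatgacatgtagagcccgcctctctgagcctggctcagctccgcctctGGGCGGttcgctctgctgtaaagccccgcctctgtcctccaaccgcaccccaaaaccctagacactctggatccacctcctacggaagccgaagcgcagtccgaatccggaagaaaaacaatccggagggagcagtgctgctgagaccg
Plcb2, chr2:118728389-118728688, minus strand: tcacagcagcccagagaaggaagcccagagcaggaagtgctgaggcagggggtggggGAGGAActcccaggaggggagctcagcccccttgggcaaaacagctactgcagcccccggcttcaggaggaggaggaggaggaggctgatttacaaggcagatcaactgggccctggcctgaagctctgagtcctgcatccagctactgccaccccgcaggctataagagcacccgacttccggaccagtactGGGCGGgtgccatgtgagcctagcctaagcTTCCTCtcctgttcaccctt
Pik3r5, chr11:68431875-68432174, plus strand: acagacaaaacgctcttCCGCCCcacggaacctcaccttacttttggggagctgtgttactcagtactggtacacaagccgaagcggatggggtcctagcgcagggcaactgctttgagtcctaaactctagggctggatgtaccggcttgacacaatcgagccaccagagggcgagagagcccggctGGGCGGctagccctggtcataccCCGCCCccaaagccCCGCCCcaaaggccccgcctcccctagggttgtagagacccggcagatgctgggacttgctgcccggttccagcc
Pik3ip1, chr11:3330481-3330780, plus strand: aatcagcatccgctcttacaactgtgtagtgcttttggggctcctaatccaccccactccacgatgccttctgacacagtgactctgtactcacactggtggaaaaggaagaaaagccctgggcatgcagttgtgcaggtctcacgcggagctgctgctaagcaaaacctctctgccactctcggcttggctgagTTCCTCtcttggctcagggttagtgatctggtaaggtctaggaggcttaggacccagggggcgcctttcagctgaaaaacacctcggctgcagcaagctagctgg
A GC box stood in 5 of these 6 sequences, all but that of Pik3ip1, and in 35.7% of all 32851 promoters of the table. In Dgkg an Egr match began 50 bases before the start and overlapped a GC box, and Inpp5k held an Egr match 247 bases before it, beside 5.55% of all promoters. PU.1 cores were found in Plcb2, 193 bases before the start and again at base 31 from it, and in Pik3ip1, 55 bases before it, beside 28.3% of all promoters. Of the 58 promoters of the tested phosphoinositide genes 74.1% held a GC box, and their median was 20.5 CpG dinucleotides, beside 7 over the whole table. With the phosphoinositide genes that were not tested included, the values were 62.8% of 78 promoters and 17. The whole table also holds genes that were not tested here. Promoters of all tested genes were not summarized apart, so whether these values are particular to this group was not tested. A GC box stood in 71.4% of the 21 sequences of genes that fell, in 72.7% of the 33 of genes that were not called and in all 4 of genes that rose. A match of letters shows neither a bound site nor a cause.

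Among class I PI3K, the kinases that make the trisphosphate, 2 of 4 catalytic and 3 of 4 tested regulatory subunits fell in LFA1-hi macrophages and none rose. Of all tested genes 15.6% fell and 16.1% rose. Pik3r5, the regulatory subunit through which the gamma kinase is activated by G protein-coupled receptors (chromosome 11, 68432125 to 68497849, build GRCm38), had 57.7, 51.9 and 52.7 TPM in LFA1-hi, against 103, 105 and 103 TPM in LFA1-lo. All LFA1-hi values thus lay far under the LFA1-lo values, which hardly varied, and the level was 1.89-fold lower (log2 fold change −0.92 with an SE of 0.081, edgeR adjusted p = 7.95e-05). Pik3r6, the alternative partner of the same kinase (chromosome 11, 68503019 to 68552698), had 6.57, 6.24 and 7.16 TPM in LFA1-hi, against 9.53, 8.39 and 9.68 TPM in LFA1-lo. Its groups did not overlap, and it fell by less (log2 fold change −0.43 with an SE of 0.14, edgeR adjusted p = 0.0394). For Pik3r6 the call was lost without LFA1-hi replicate 1 (−0.42), LFA1-hi replicate 2 (−0.38), LFA1-hi replicate 3 (−0.49), LFA1-lo replicate 1 (−0.41) and LFA1-lo replicate 3 (−0.40), and with library totals and no filter. Adjusted p of Pik3r6 ran from 0.0211 to 0.143 over the alternatives. Both regulatory genes lie side by side on chromosome 11, 5169 bases apart and on the same strand.

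Pik3cg, the gamma catalytic subunit itself, had 56.4, 59.1 and 57.0 TPM in LFA1-hi, against 57.6, 35.3 and 63.3 TPM in LFA1-lo. The LFA1-lo group held both the lowest and the highest value, the low one being replicate 2, and the gene was not called (log2 fold change 0.17, 95% interval −0.24 to 0.58, edgeR adjusted p = 0.506). Without LFA1-lo replicate 2 its estimate turned to −0.032 (adjusted p = 0.736, range over alternatives 0.182 to 0.736). Set against the catalytic gene, the TPM ratio of Pik3r5 to Pik3cg was 1.02, 0.879 and 0.925 in LFA1-hi, against 1.79, 2.97 and 1.63 in LFA1-lo. The ratios of the groups did not overlap, and the summed TPM of Pik3r5 and Pik3r6 was 64.3, 58.1 and 59.9 TPM in LFA1-hi, against 113, 113 and 113 TPM in LFA1-lo.

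The delta kinase, a leukocyte form, moved in the same direction as its main regulatory partner. Pik3cd, its catalytic subunit (chromosome 4, 149649168 to 149702566), had 40.0, 40.9 and 44.3 TPM in LFA1-hi, against 60.3, 62.9 and 64.9 TPM in LFA1-lo, with no overlap between the groups (log2 fold change −0.57 with an SE of 0.083, edgeR adjusted p = 0.00101). Pik3r1, which encodes the regulatory subunit that stabilizes the alpha, beta and delta catalytic chains (chromosome 13, 101680761 to 101768217), had 33.3, 36.4 and 33.5 TPM in LFA1-hi, against 51.7, 46.1 and 52.4 TPM in LFA1-lo. Every LFA1-hi value lay under every LFA1-lo value (log2 fold change −0.52 with an SE of 0.074, edgeR adjusted p = 0.000923). The ratio of Pik3r1 to Pik3cd in TPM overlapped between the groups, at 0.834, 0.891 and 0.756 in LFA1-hi, against 0.858, 0.734 and 0.808 in LFA1-lo. Pik3ca, the widely expressed alpha catalytic subunit (chromosome 3, 32397065 to 32466112), had 20.0, 19.4 and 18.3 TPM in LFA1-hi, against 27.1, 21.6 and 26.3 TPM in LFA1-lo, also without overlap (log2 fold change −0.36 with an SE of 0.093, edgeR adjusted p = 0.0176). For Pik3ca the call was lost without LFA1-hi replicate 2 (−0.33), LFA1-hi replicate 3 (−0.33) and LFA1-lo replicate 1 (−0.31). Adjusted p of Pik3ca ran from 0.000229 to 0.0859 over the alternatives.

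The remaining class I genes were not called. Pik3r2, a second regulatory subunit of the same kinases, had 20.3, 21.2 and 20.7 TPM in LFA1-hi, against 22.2, 17.6 and 18.8 TPM in LFA1-lo, and its groups overlapped (log2 fold change 0.11, 95% interval −0.13 to 0.35, edgeR adjusted p = 0.479). Of the summed TPM of Pik3r1, Pik3r2 and Pik3r3, Pik3r1 made up 61.9, 62.8 and 61.7% in LFA1-hi, against 69.8, 72.2 and 73.4% in LFA1-lo. These shares did not overlap, and the difference between the fold changes of Pik3r1 and Pik3r2 was not tested. Pik3cb, the beta catalytic subunit, had 46.9, 53.5 and 59.7 TPM in LFA1-hi, against 59.4, 85.7 and 42.6 TPM in LFA1-lo. Here LFA1-lo replicate 2 was the highest of the 6 libraries, the opposite of its place for Pik3cg, and the groups overlapped (log2 fold change −0.21, 95% interval −0.80 to 0.38, edgeR adjusted p = 0.558). Without LFA1-lo replicate 2 the estimate for Pik3cb was 0.11 (adjusted p = 0.639, range over alternatives 0.12 to 0.769). Part of its counts was not whole, so that some of its reads were shared with other features. Pik3r3, another regulatory subunit, had 4 to 16 counts in LFA1-hi and 6 or 7 in LFA1-lo libraries and was not tested.

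**Figure D2:**
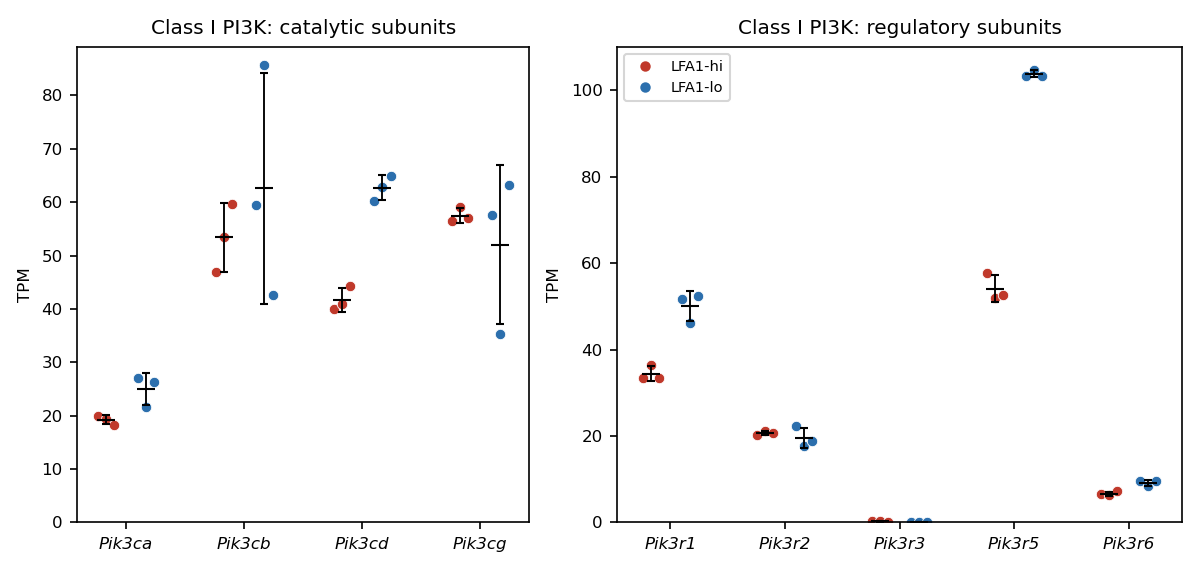
TPM of the class I PI3K genes in each library (y axis, from 0), catalytic subunits at left and regulatory subunits at right; red points are LFA1-hi and blue points LFA1-lo libraries, and bars give the mean with its SD (n = 3 each). Pik3r5 averaged 54.1 ± 3.15 TPM in LFA1-hi and 104 ± 0.843 TPM in LFA1-lo. The LFA1-lo bars of Pik3cb and Pik3cg are wide. In Pik3cb LFA1-lo replicate 2 is the highest and replicate 3 the lowest of the 6 libraries, and in Pik3cg LFA1-lo replicate 2 is low.

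An adaptor and an inhibitor of class I PI3K both fell. Pik3ap1, also called BCAP, which couples Toll-like and antigen receptors to PI3K (chromosome 19, 41272541 to 41385102), was the most abundant of the 59 genes per length, with 379, 370.5 and 355 TPM in LFA1-hi, against 506, 592 and 461 TPM in LFA1-lo. The groups did not overlap, and the LFA1-lo libraries spread more than the LFA1-hi libraries (log2 fold change −0.48 with an SE of 0.11, edgeR adjusted p = 0.00837). Pik3ip1, a membrane protein that restrains PI3K (chromosome 11, 3319241 to 3342971), was low throughout, with 0.58, 0.34 and 0.78 TPM in LFA1-hi, against 2.70, 1.16 and 2.32 TPM in LFA1-lo. These levels rested on 12, 6 and 16 counts in LFA1-hi, against 50, 21 and 44 counts in LFA1-lo. It was about 3.5-fold lower in LFA1-hi, the largest fall among the 47 genes (log2 fold change −1.81 with an SE of 0.49, edgeR adjusted p = 0.021). For Pik3ip1 the call was lost without LFA1-hi replicate 1 (−1.82), LFA1-hi replicate 2 (−1.54), LFA1-lo replicate 1 (−1.58) and LFA1-lo replicate 3 (−1.71). Adjusted p of Pik3ip1 ran from 0.0044 to 0.0876 over the alternatives. Its span overlaps that of Gm11944 on the same strand, and reads could be assigned to either. Its counts were whole in every library, so no division of reads between these genes showed, and wrong assignment was not tested.

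Neither class II nor class III PI3K, which make phosphatidylinositol monophosphate or bisphosphate on endosomes and in autophagy, was called in edgeR, beside 31.7% of all tested genes. Of their 3 tested genes 0 passed an unadjusted p of 0.05 or DESeq2. Pik3c3, the class III catalytic subunit, had 25.2, 25.4 and 26.4 TPM in LFA1-hi, against 31.6, 23.8 and 32.8 TPM in LFA1-lo (log2 fold change −0.17, 95% interval −0.44 to 0.094, edgeR adjusted p = 0.303). Its regulatory partner Pik3r4 had 16.8, 18.5 and 19.1 TPM in LFA1-hi, against 27.7, 17.1 and 22.3 TPM in LFA1-lo (log2 fold change −0.28, 95% interval −0.61 to 0.052, edgeR adjusted p = 0.182). The class II gene Pik3c2a had 22.6, 25.5 and 22.5 TPM in LFA1-hi, against 29.9, 24.2 and 26.2 TPM in LFA1-lo (log2 fold change −0.16, 95% interval −0.36 to 0.040, edgeR adjusted p = 0.204). In all 3 genes the groups overlapped, because LFA1-lo replicate 2 was the lowest LFA1-lo library. Without it all 3 were lower in LFA1-hi, Pik3r4 with a log2 fold change of −0.42 (adjusted p = 0.00386, range over alternatives 0.00386 to 0.576), Pik3c3 with −0.29 (adjusted p = 0.0194, range over alternatives 0.0194 to 0.625) and Pik3c2a with −0.21 (adjusted p = 0.0438, range over alternatives 0.0438 to 0.534). The other class II genes were near 0, with 9 counts of Pik3c2b over the LFA1-hi and 2 over the LFA1-lo libraries and none of Pik3c2g.

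Of the 11 inositol phosphatases, which take phosphates off phosphoinositides or their soluble head groups, 4 fell (36.4%) and 1 rose (9.09%). Over all tested genes these shares were 15.6% and 16.1%. Inpp5d, the leukocyte phosphatase SHIP1 that removes a phosphate from the PI3K product and restrains macrophage activation, was the second most abundant of the 59 genes, with 127, 124 and 114 TPM in LFA1-hi, against 139.6, 97.7 and 147 TPM in LFA1-lo. Its LFA1-lo values lay on both sides of the LFA1-hi values, and it was not called (log2 fold change −0.046, 95% interval −0.34 to 0.25, edgeR adjusted p = 0.814). Without LFA1-lo replicate 2, the lowest library, it passed with a small fall (log2 fold change −0.19, adjusted p = 0.0282, range over alternatives 0.0282 to 0.974). Inppl1, or SHIP2, the widely expressed relative with the same activity (chromosome 7, 101822632 to 101838226), had 74.9, 78.5 and 75.6 TPM in LFA1-hi, against 119, 109.7 and 90.8 TPM in LFA1-lo. It fell without overlap of the groups (log2 fold change −0.46 with an SE of 0.10, edgeR adjusted p = 0.00785), and the ratio of Inppl1 to Inpp5d in TPM overlapped between them; it was 0.589, 0.633 and 0.662 in LFA1-hi, against 0.849, 1.12 and 0.618 in LFA1-lo.

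Inpp5k, a phosphatase of the bisphosphate and trisphosphate that is found at the endoplasmic reticulum (chromosome 11, 75629067 to 75648865), had 19.8, 21.2 and 18.9 TPM in LFA1-hi, against 34.3, 26.9 and 35.9 TPM in LFA1-lo, and all LFA1-hi values were lower (log2 fold change −0.67 with an SE of 0.12, edgeR adjusted p = 0.00248). Inpp4a, which removes the phosphate at another position of the inositol ring and acts on the product of SHIP1, had 13.5, 15.8 and 15.4 TPM in LFA1-hi, against 21.8, 15.6 and 25.0 TPM in LFA1-lo. The LFA1-lo value of replicate 2 lay among the LFA1-hi values, and the gene fell narrowly (log2 fold change −0.46 with an SE of 0.15, edgeR adjusted p = 0.0429). For Inpp4a the call was lost without LFA1-hi replicate 1 (−0.41), LFA1-hi replicate 2 (−0.45), LFA1-hi replicate 3 (−0.51), LFA1-lo replicate 1 (−0.44) and LFA1-lo replicate 3 (−0.30), and with library totals, limma voom, log2(TPM + 0.1) and log2(TPM + 1). Adjusted p of Inpp4a ran from 0.000149 to 0.155 over the alternatives. Inpp5a, which inactivates the soluble messenger inositol trisphosphate, had 10.1, 9.05 and 10.9 TPM in LFA1-hi, against 12.1, 15.4 and 14.4 TPM in LFA1-lo, with no overlap (log2 fold change −0.45 with an SE of 0.15, edgeR adjusted p = 0.0484). For Inpp5a the call was lost without LFA1-hi replicate 1 (−0.46), LFA1-hi replicate 2 (−0.36), LFA1-hi replicate 3 (−0.53), LFA1-lo replicate 2 (−0.35) and LFA1-lo replicate 3 (−0.44), and with upper quartile scaling, library totals, no filter and limma voom. Adjusted p of Inpp5a ran from 0.034 to 0.178 over the alternatives. Counts of Inpp5a were not whole in some libraries.

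Inpp5j, a phosphatase of the bisphosphate and trisphosphate also known as PIPP (chromosome 11, 3494272 to 3505501), was the phosphatase that rose, at low levels of 1.41, 2.04 and 1.93 TPM in LFA1-hi, against 0.88, 0.41 and 1.05 TPM in LFA1-lo. The counts behind them were 47, 57 and 64 in LFA1-hi, against 26, 12 and 32 in LFA1-lo. Its groups did not overlap and differed 2.33-fold (log2 fold change 1.22 with an SE of 0.39, edgeR adjusted p = 0.0404). For Inpp5j the call was lost without LFA1-hi replicate 1 (1.36), LFA1-hi replicate 2 (1.15), LFA1-hi replicate 3 (1.15), LFA1-lo replicate 1 (1.30) and LFA1-lo replicate 2 (0.93), and with log2(TPM + 0.1). Adjusted p of Inpp5j ran from 0.0166 to 0.13 over the alternatives. It lies 151300 bases from Pik3ip1 on chromosome 11, which fell, and Pla2g3 on the other strand overlaps it. The 5 other phosphatases not called ran from −0.24 for Inpp5f to 0.19 for Inpp5b on the log2 scale. Of these, Inpp5f had 15.5, 16.3 and 15.3 TPM in LFA1-hi, against 19.0, 19.8 and 17.6 TPM in LFA1-lo, which did not overlap (log2 fold change −0.24, 95% interval −0.45 to −0.026, edgeR adjusted p = 0.0829). Inpp4b, which like Inpp4a makes the monophosphate, had 5.61, 4.28 and 4.26 TPM in LFA1-hi, against 5.77, 1.90 and 6.36 TPM in LFA1-lo, with LFA1-lo replicate 2 far under the other libraries (log2 fold change 0.024, 95% interval −0.93 to 0.98, edgeR adjusted p = 0.972). Without it the estimate was negative (log2 fold change −0.34, adjusted p = 0.085, range over alternatives 0.085 to 0.979). Inpp1, Inpp5b and Inpp5e averaged 12.3 ± 1.28, 22.9 ± 1.61 and 9.70 ± 0.905 TPM in LFA1-hi and 12.7 ± 3.36, 20.4 ± 1.74 and 10.2 ± 1.74 TPM in LFA1-lo (SD, n = 3 each).

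Of the 6 tested kinases that supply phosphatidylinositol bisphosphate 2 fell (33.3%) and none rose, beside 15.6% and 16.1% of all tested genes. All 6 estimates lay below 0, beside 50.4% of all tested genes. Pip5k1c, the gamma type I kinase that also makes bisphosphate at adhesion sites (chromosome 10, 81292835 to 81319974), was the most abundant of them, with 83.7, 83.2 and 92.0 TPM in LFA1-hi, against 128, 149 and 105 TPM in LFA1-lo. LFA1-lo replicate 2 was highest, and no value overlapped (log2 fold change −0.54 with an SE of 0.13, edgeR adjusted p = 0.0139). For Pip5k1c the call was lost without LFA1-hi replicate 1 (−0.53) and LFA1-hi replicate 2 (−0.49). Adjusted p of Pip5k1c ran from 0.00105 to 0.0683 over the alternatives. Pip5k1a, the alpha type I kinase, had 17.7, 18.7 and 18.8 TPM in LFA1-hi, against 26.3, 24.8 and 19.4 TPM in LFA1-lo and was not called (log2 fold change −0.33, 95% interval −0.61 to −0.054, edgeR adjusted p = 0.0687). The fit lacking LFA1-lo replicate 3 called it lower; that library's value lay nearest to LFA1-hi (log2 fold change −0.46, adjusted p = 0.00809, range over alternatives 0.00809 to 0.209). Pip5k1b, the beta form, averaged 0.887 ± 0.0635 TPM in LFA1-hi and 1.51 ± 0.923 TPM in LFA1-lo (log2 fold change −0.76, 95% interval −1.90 to 0.39, edgeR adjusted p = 0.291). Its LFA1-lo replicate 2 was the highest library, at 2.52 TPM, and without it the difference shrank (log2 fold change −0.15, adjusted p = 0.855, range over alternatives 0.123 to 0.855).

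Of the type II kinases, which use another monophosphate as substrate, Pip4k2a (chromosome 2, 18842255 to 18998291) had 60.9, 61.1 and 54.6 TPM in LFA1-hi, against 79.9, 75.5 and 81.7 TPM in LFA1-lo and fell without overlap (log2 fold change −0.40 with an SE of 0.077, edgeR adjusted p = 0.00409). Pip4k2b had 36.7, 34.8 and 35.0 TPM in LFA1-hi, against 40.7, 41.3 and 40.5 TPM in LFA1-lo; these too did not overlap, but the gene was not called (log2 fold change −0.18, 95% interval −0.35 to −0.0017, edgeR adjusted p = 0.114). For Pip4k2c, at 41.6, 41.5 and 43.5 TPM in LFA1-hi, against 47.5, 38.0 and 45.1 TPM in LFA1-lo, the groups overlapped (log2 fold change −0.020, 95% interval −0.23 to 0.19, edgeR adjusted p = 0.892). The summed TPM of the 3 type II genes was 139, 138 and 133 TPM in LFA1-hi, against 168, 155 and 167 TPM in LFA1-lo, and that of the type I genes was 102, 103 and 112 TPM in LFA1-hi, against 155, 176 and 126 TPM in LFA1-lo.

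**Figure D3:**
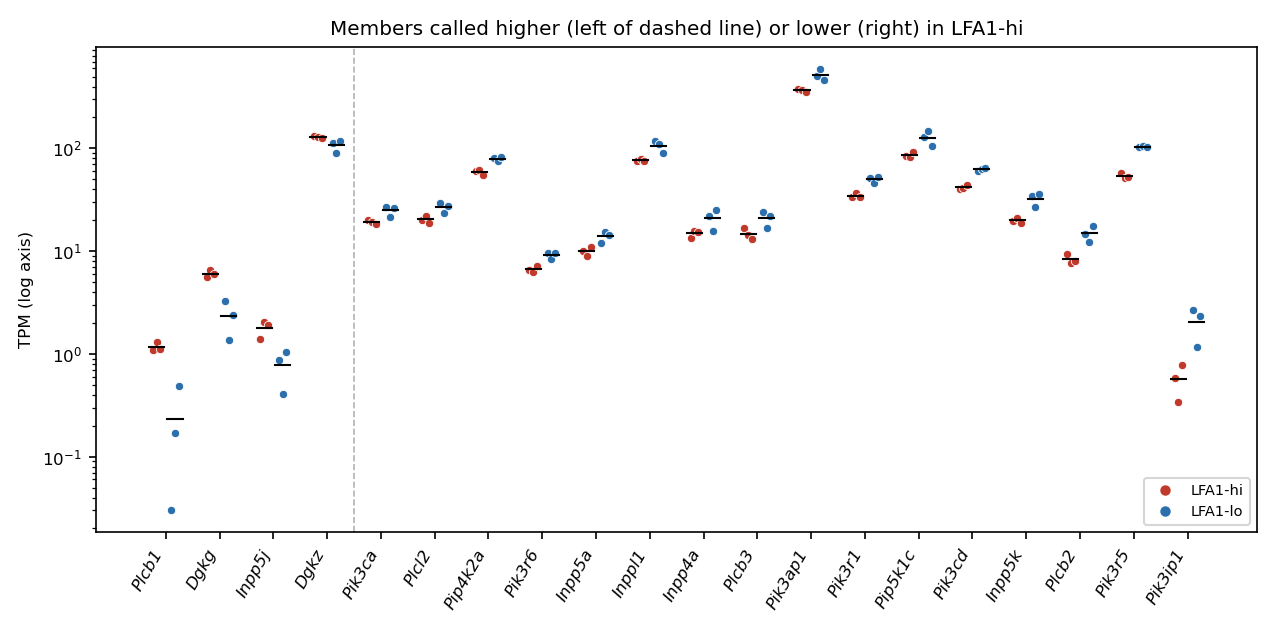
TPM (y axis, logarithmic) of the 20 called genes in each library, ordered from the largest rise to the largest fall; red points are LFA1-hi and blue points LFA1-lo libraries, and black bars are group means. The groups overlap in Inpp4a alone, whose LFA1-lo replicate 2 lies at 15.6 TPM, and Plcb1, Inpp5j and Pik3ip1 lie at or under 2.70 TPM in all 6 libraries.

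Among the 4 phospholipases C of the beta type, which respond to G protein-coupled receptors, 2 fell and 1 rose, beside 15.6% and 16.1% of all tested genes. Neither gamma form, which responds to tyrosine kinases and Fc receptors, was called, beside 31.7% of all tested genes. A difference between the types was not tested. Plcb2, the beta form typical of blood cells (chromosome 2, 118705003 to 118728661), had 9.33, 7.70 and 8.03 TPM in LFA1-hi, against 14.7, 12.4 and 17.8 TPM in LFA1-lo, and every LFA1-hi value was lower (log2 fold change −0.81 with an SE of 0.14, edgeR adjusted p = 0.00289). Plcb3, a widely expressed beta form (chromosome 19, 6953708 to 6975006), had 16.7, 14.4 and 13.1 TPM in LFA1-hi, against 24.2, 16.7 and 21.8 TPM in LFA1-lo. In TPM its LFA1-lo replicate 2 all but met the highest LFA1-hi library, and on the CPM scale the groups overlapped (log2 fold change −0.48 with an SE of 0.14, edgeR adjusted p = 0.0308). For Plcb3 the call was lost without LFA1-hi replicate 2 (−0.43), LFA1-hi replicate 3 (−0.40), LFA1-lo replicate 1 (−0.37) and LFA1-lo replicate 3 (−0.45), and with library totals, log2(TPM + 0.1) and log2(TPM + 1). Adjusted p of Plcb3 ran from 0.000493 to 0.127 over the alternatives. Plcb1, another beta form (chromosome 2, 134786164 to 135475258), ran the other way, with 77, 77 and 78 counts in LFA1-hi, against 2, 10 and 31 counts in LFA1-lo. In TPM it had 1.10, 1.31 and 1.12 TPM in LFA1-hi, against 0.03, 0.17 and 0.49 TPM in LFA1-lo. The LFA1-hi libraries were nearly alike while the LFA1-lo libraries ranged widely, all of them lower, and the gene was 5.20-fold higher in LFA1-hi (log2 fold change 2.38 with an SE of 0.63, edgeR adjusted p = 0.0202). For Plcb1 the call was lost without LFA1-hi replicate 1 (2.42), LFA1-hi replicate 2 (2.32) and LFA1-hi replicate 3 (2.41). Adjusted p of Plcb1 ran from 0.000804 to 0.071 over the alternatives. Leaving out LFA1-lo replicate 3 gave 3.58, and leaving out LFA1-lo replicate 1 gave 1.86. Of the summed TPM of the beta forms, Plcb1 made up 3.97, 5.54 and 4.87% in LFA1-hi, against 0.0752, 0.572 and 1.20% in LFA1-lo. The fourth, Plcb4, had 6 to 26 counts in LFA1-hi and 15 to 31 in LFA1-lo libraries (log2 fold change −0.45, 95% interval −1.67 to 0.77, edgeR adjusted p = 0.561).

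Plcg2, the gamma form through which Fc receptors and Trem2 signal in myeloid cells, was the most abundant phospholipase C, with 107, 101 and 94.8 TPM in LFA1-hi, against 104, 85.7 and 100.3 TPM in LFA1-lo. The groups overlapped and the interval was narrow (log2 fold change 0.084, 95% interval −0.11 to 0.28, edgeR adjusted p = 0.494). Plcg1, its relative of T cells and many other tissues, had 7.37, 5.79 and 7.29 TPM in LFA1-hi, against 9.48, 5.47 and 6.89 TPM in LFA1-lo (log2 fold change −0.063, 95% interval −0.52 to 0.39, edgeR adjusted p = 0.841). For the gamma forms the count of calls was 0 in edgeR and in DESeq2, and 0 passed an unadjusted p of 0.05. Of the summed TPM of all phospholipases C, Plcg2 accounted for 73.9, 75.9 and 74.6% in LFA1-hi, against 66.2, 69.1 and 65.9% in LFA1-lo. This share did not overlap between the groups, while the summed TPM of the family did, at 145, 133 and 127 TPM in LFA1-hi, against 158, 124 and 152 TPM in LFA1-lo.

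Plcl2, a relative that lost the catalytic activity and binds inositol phosphates (chromosome 17, 50508865 to 50688494), had 20.1, 22.1 and 18.8 TPM in LFA1-hi, against 29.1, 23.5 and 27.5 TPM in LFA1-lo. It fell, without overlap (log2 fold change −0.37 with an SE of 0.10, edgeR adjusted p = 0.0177). For Plcl2 the call was lost without LFA1-hi replicate 1 (−0.37), LFA1-hi replicate 2 (−0.40), LFA1-hi replicate 3 (−0.33) and LFA1-lo replicate 1 (−0.32). Adjusted p of Plcl2 ran from 0.00118 to 0.0898 over the alternatives. Plcl1, of the same kind, had 0.26, 0.26 and 0.22 TPM in LFA1-hi, against 0.45, 0.42 and 0.35 TPM in LFA1-lo (log2 fold change −0.71, 95% interval −1.64 to 0.21, edgeR adjusted p = 0.22). Plcd1, a calcium-driven delta form, had 2.52, 2.0 and 1.13 TPM in LFA1-hi, against 3.06, 2.61 and 3.53 TPM in LFA1-lo and was not called although the groups did not overlap (log2 fold change −0.68, 95% interval −1.43 to 0.070, edgeR adjusted p = 0.152). Plcd3 averaged 0.623 ± 0.315 TPM in LFA1-hi and 0.697 ± 0.225 TPM in LFA1-lo (SD, n = 3 each; log2 fold change −0.13, 95% interval −1.33 to 1.06, edgeR adjusted p = 0.871).

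Diacylglycerol kinases were the one family with rises and no falls, but the family is small. Of 7 tested genes 2 rose (28.6%) and 0 fell, beside 16.1% and 15.6% of all tested genes. Of the 7 estimates 4 lay below 0, and their median log2 fold change was −0.0052. DESeq2 also called 2 higher and 0 lower, and in edgeR 2 were lower at an unadjusted p under 0.05. Without LFA1-lo replicate 2, 3 rose and 1 fell. Dgkg, a calcium-sensitive form (chromosome 16, 22466568 to 22657302), had 5.58, 6.56 and 6.02 TPM in LFA1-hi, against 3.29, 1.38 and 2.40 TPM in LFA1-lo. Every LFA1-hi library was higher, by 2.61-fold on average (log2 fold change 1.39 with an SE of 0.26, edgeR adjusted p = 0.00355), and over the fits without a library the value ran from 1.13 to 1.69. Dgkz, the zeta form that limits diacylglycerol signals to Ras in lymphocytes (chromosome 2, 91932822 to 91976443), was the most abundant of the family, with 133, 128 and 127 TPM in LFA1-hi, against 113, 90.6 and 117 TPM in LFA1-lo. It was higher in LFA1-hi, where the 3 libraries were close together (log2 fold change 0.29 with an SE of 0.093, edgeR adjusted p = 0.0418). For Dgkz the call was lost without LFA1-hi replicate 1 (0.26), LFA1-hi replicate 2 (0.32), LFA1-hi replicate 3 (0.29) and LFA1-lo replicate 1 (0.32), and with log2(TPM + 0.1) and log2(TPM + 1). Adjusted p of Dgkz ran from 0.0223 to 0.149 over the alternatives. Dgkd, the delta form, followed in abundance with 76.1, 67.0 and 68.3 TPM in LFA1-hi, against 85.0, 63.0 and 76.5 TPM in LFA1-lo, and its groups overlapped (log2 fold change −0.060, 95% interval −0.30 to 0.18, edgeR adjusted p = 0.707).

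The other diacylglycerol kinases were low and not called. Dgkh, the eta form, had 6.27, 7.58 and 7.28 TPM in LFA1-hi, against 9.85, 11.9 and 7.62 TPM in LFA1-lo, just short of overlap (log2 fold change −0.46, 95% interval −0.86 to −0.058, edgeR adjusted p = 0.0786), and it passed without LFA1-lo replicate 3 (log2 fold change −0.61, adjusted p = 0.0186, range over alternatives 0.0186 to 0.239). The estimate was smaller without LFA1-lo replicate 2, its highest library (log2 fold change −0.27, adjusted p = 0.174). Dgke, a form that prefers the lipids of the phosphoinositide cycle, had 7.61, 6.69 and 7.28 TPM in LFA1-hi, against 4.72, 7.43 and 4.39 TPM in LFA1-lo, with LFA1-lo replicate 2 among the LFA1-hi values (log2 fold change 0.40, 95% interval −0.071 to 0.88, edgeR adjusted p = 0.177). Without that library it was higher in LFA1-hi (log2 fold change 0.70, adjusted p = 0.00117, range over alternatives 0.00117 to 0.409). Dgka, the alpha form, had 5.27, 4.48 and 3.21 TPM in LFA1-hi, against 8.74, 5.0 and 6.13 TPM in LFA1-lo (log2 fold change −0.59, 95% interval −1.17 to −0.013, edgeR adjusted p = 0.109), and without LFA1-lo replicate 2 it was lower (log2 fold change −0.74, adjusted p = 0.0216, range over alternatives 0.0216 to 0.367). Dgkq averaged 6.71 ± 0.352 TPM in LFA1-hi and 6.83 ± 0.841 TPM in LFA1-lo (SD, n = 3 each; log2 fold change −0.0052, 95% interval −0.32 to 0.31, edgeR adjusted p = 0.982), and some of its counts were not whole. Of the summed TPM of the family, Dgkz held 55.4, 56.2 and 56.3% in LFA1-hi, against 48.7, 48.5 and 53.1% in LFA1-lo. The share of Dgkd was 31.6, 29.5 and 30.2% in LFA1-hi, against 36.7, 33.7 and 34.8% in LFA1-lo. Neither share overlapped between the groups, although the level of Dgkd did.

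**Figure D4:**
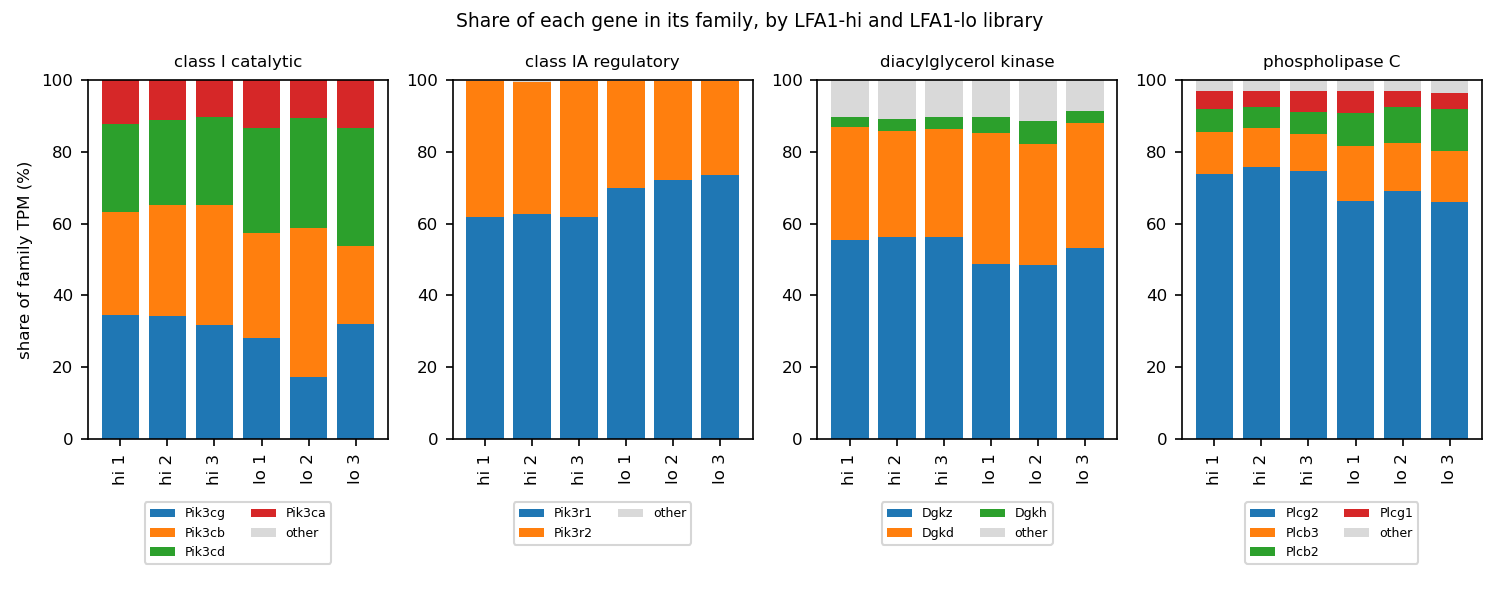
Share of each gene in the summed TPM of its family (y axis, percent) in the 6 libraries, LFA1-hi 1 to 3 at left and LFA1-lo 1 to 3 at right of each panel, for class I catalytic subunits, their class IA regulatory subunits, diacylglycerol kinases and phospholipases C; genes that never reach 5% are pooled as other. Pik3cd takes 23.7% to 24.7% of class I catalytic TPM in LFA1-hi and 29.5% to 32.9% in LFA1-lo, and Pik3cg dips to 17.2% in LFA1-lo replicate 2.

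Transcript use could be followed where a gene has several annotated transcripts, since the files give a mean transcript length weighted by the estimated share of each. Of 19 tested genes with 2 or more transcripts, 8 had lengths that varied by over 1% between libraries, and in 2 of these the groups did not overlap, beside 12.8% of the 1818 tested genes of this kind. Dgkz had mean lengths of 3515, 3531 and 3528 bases in LFA1-hi libraries, against 3578, 3562 and 3552 bases in LFA1-lo libraries. The LFA1-hi lengths were thus a little shorter in the gene that also rose. Plcb1 had 7087, 7055 and 7034 bases in LFA1-hi libraries, against 6998 bases in each LFA1-lo library. All LFA1-lo reads of Plcb1, at most 31 in a library, were assigned to its shorter form, and this depth could not show a small share of the longer one.

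The 12 genes that were not tested had few or no counts. Dgkeos, Dgkk, Pik3c2g, Pip5kl1, Plcd4 and Plch1 had 0 counts in all 6 libraries, where 3 counts correspond to 0.170 to 0.197 CPM. Over the LFA1-hi and LFA1-lo libraries together, Plce1 had 1 count, Plch2 3 and Dgkb 4. Dgki, the iota diacylglycerol kinase, had 19 counts in LFA1-hi and 19 in LFA1-lo libraries.

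Other genes of the pathway were followed in 7 lists of 133 genes, of which 123 were tested. Of these, 34 fell (27.6%) and 14 rose in LFA1-hi, beside 15.6% and 16.1% of all tested genes. Proteins that read the PI3K lipids or bring PI3K to receptors fell in 11 of 25 cases and rose in 1 (median log2 fold change −0.20). Of all tested genes 15.6% fell and 16.1% rose. Falls included Gab1 (−1.51), a docking protein that binds the regulatory subunits, Adap2 (−0.85), which binds the trisphosphate and acts on Arf6, Prex1 (−0.75), a Rac exchange factor activated by the trisphosphate, and Plekha1 (−0.73), a reader of the bisphosphate that SHIP1 makes, and these calls held without any single library. Bmx, a Tec family kinase, rose (3.43) at 1.09 to 1.55 TPM in LFA1-hi and 0 to 0.19 TPM in LFA1-lo. Between 5 and 16 of the list fell over the fits without a library, 16 of them without LFA1-lo replicate 2. In the branch of Akt and the growth kinase mTOR 6 of 21 fell and 2 rose (median 0.0028), beside 15.6% and 16.1% of all tested genes. Here Phlpp1 (−0.93), a phosphatase of Akt, and Akt1s1 (−0.65), an inhibitor of mTOR, fell, and Phlda3 (1.28), which competes with Akt for the trisphosphate, rose. The transcription factors Foxo1 (−0.51) and Foxo3 (−0.51), which Akt keeps out of the nucleus, also fell, and Rheb (0.30), which activates mTOR, rose. Foxo1 lost its call without LFA1-hi replicates 1 and 3 and LFA1-lo replicates 1 and 3 (estimates −0.60 to −0.41 without a library). Foxo3 lost its call without LFA1-hi replicates 1, 2 and 3 and LFA1-lo replicate 1 (estimates −0.65 to −0.40 without a library). Rheb lost its call without LFA1-hi replicates 1, 2 and 3 and LFA1-lo replicates 1 and 3 (estimates 0.27 to 0.36 without a library). Of the list 2 to 6 fell over the fits without a library.

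The branch of inositol trisphosphate leaned the other way, with 6 of 16 genes rising and 2 falling (median 0.17). Of all tested genes 16.1% rose and 15.6% fell. Itpr1 (0.77) and Itpr3 (0.49), calcium channels opened by inositol trisphosphate, and Bpnt1 (0.66), a phosphatase of inositol phosphates and nucleotides, rose. Impa2 (0.70), which recycles inositol, rose as well. Impa2 lost its call without LFA1-hi replicates 2 and 3 and LFA1-lo replicate 3 (estimates 0.56 to 0.90 without a library). Ip6k1 (−1.19), which makes inositol pyrophosphates, and Itpkb (−0.84), which phosphorylates inositol trisphosphate, fell. Over the fits without a library 3 to 7 rose and 2 to 4 fell.

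In the diacylglycerol branch 5 of 14 fell and 1 rose (median −0.28), beside 15.6% and 16.1% of all tested genes. Rasgrp3 (−1.83) and Rasgrp4 (−1.65), exchange factors for Ras that bind diacylglycerol, fell, as did the kinase Prkcd (−0.66) and Chn2 (−0.67), a Rac regulator that binds diacylglycerol. Rasgrp2 (2.24), of the same family as Rasgrp3, rose. Rasgrp2 lost its call without LFA1-hi replicate 2 (estimates 1.79 to 2.63 without a library). Chn2 lost its call without LFA1-hi replicate 2 (estimates −0.78 to −0.58 without a library). Over the fits without a library 4 to 7 of the branch fell and 0 or 1 rose. Among genes of lipid supply and phospholipase D 6 of 20 fell (30%) and 3 rose (median −0.058), beside 15.6% and 16.1% of all tested genes. Among the falls were Pitpnc1 (−1.16), a carrier of phosphatidylinositol, Pld3 (−1.05), the phospholipase D Pld2 (−0.69) and Lpin2 (−0.62), a phosphatase that makes diacylglycerol. Rises were those of Pitpnm2 (2.09), Ppap2b (0.70), now named Plpp3, and Pitpnb (0.28). Pld2 lost its call without LFA1-hi replicate 2 (estimates −0.86 to −0.56 without a library). Pitpnm2 lost its call without LFA1-hi replicates 2 and 3 (estimates 1.78 to 2.49 without a library). Ppap2b lost its call without LFA1-hi replicates 1, 2 and 3 and LFA1-lo replicates 1 and 3 (estimates 0.48 to 0.81 without a library). Pitpnb lost its call without LFA1-hi replicates 2 and 3 and LFA1-lo replicate 1 (estimates 0.26 to 0.33 without a library). Over the fits without a library 4 to 9 of these genes fell and 0 to 3 rose. Of the other phosphoinositide phosphatases 4 of 16 fell and 1 rose (median −0.17), beside 15.6% and 16.1% of all tested genes. The falls of Mtmr10 (−0.68), Mtmr12 (−0.62) and Mtm1 (−0.47) of the myotubularin family held without any single library. Mtmr14 (−0.64) fell and Mtmr2 (0.26) rose in the same family. Mtmr14 lost its call without LFA1-hi replicates 1, 2 and 3 and LFA1-lo replicates 1 and 3 (estimates −0.83 to −0.46 without a library). Mtmr2 lost its call without LFA1-hi replicates 1, 2 and 3 and LFA1-lo replicate 1 (estimates 0.22 to 0.30 without a library). Of these phosphatases 3 to 7 fell and 0 to 2 rose over the fits without a library. None of the 11 other phosphoinositide kinases and their partners was called in edgeR or DESeq2 (median −0.13), and 1 passed an unadjusted p of 0.05, as a rise. Of all tested genes 31.7% were called in edgeR. Without LFA1-lo replicate 2, 2 of them fell and 1 rose.

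Markers of the cultured cells and of other cells were read beside these results. Of 8 macrophage markers 5 fell (Adgre1, Csf1r, Cd68, Cd14 and Lyz2) in LFA1-hi, beside 15.6% of all tested genes. The list summed to 23254 to 26556 TPM in LFA1-hi and 27197 to 38896 TPM in LFA1-lo. Csf1r, the M-CSF receptor, had 703, 655 and 642 TPM in LFA1-hi, against 1510.0, 1148 and 1475 TPM in LFA1-lo, and Cd68 stood at 2488, 2313 and 2259.8 TPM in LFA1-hi, against 2916, 3020.1 and 2961 TPM in LFA1-lo. Of 5 tested neutrophil markers 3 fell in LFA1-hi, beside 15.6% of all tested genes. S100a9 (log2 fold change −4.08) was among them, and the others fell by as much (−4.19 and −3.86), while Mmp8 and S100a8 were not called. The list summed to 97.2 to 109 TPM in LFA1-hi and 154 to 290.2 TPM in LFA1-lo, mostly from Mmp8, S100a8 and S100a9. Mmp8 had 76.8, 85.4 and 62.7 TPM in LFA1-hi, against 100.6, 38.3 and 109.8 TPM in LFA1-lo. Its groups overlapped, as did those of S100a8. S100a9, an abundant neutrophil protein, had 3.49, 2.30 and 3.88 TPM in LFA1-hi, against 20.4, 66.2 and 80.3 TPM in LFA1-lo. Elane, with 14 counts in all, was not tested and had 0 counts in 1 LFA1-hi and 2 LFA1-lo libraries. The part of such cells in the falls of leukocyte genes such as Pik3r5, Pik3cd and Plcb2 was not tested. Of the markers of B cells Pax5 and Ebf1 were at 0 in all libraries, as were Cd3e, Cd3d, Cd3g, Ncr1 and Gzma of T and NK cells, Cpa3, Fcer1a, Ms4a2 and Prss34 of mast cells and basophils, Gp9 and Gp6 of platelets, Hbb-bs of erythroid cells, Flt3 and Ccr7 of dendritic cells and Lepr of stromal cells. Other markers of these lists had counts above 0. Tested and not called were 1 marker of B cells, 1 of dendritic cells, 1 of mast cells and basophils and 3 of stromal and endothelial cells. The summed TPM was 4.1 to 5.38 in LFA1-hi and 3.09 to 8.99 in LFA1-lo for B cells, 3.36 to 5.95 in LFA1-hi and 2.56 to 4.23 in LFA1-lo for dendritic cells, and 7.93 to 9.19 in LFA1-hi and 4.71 to 7.04 in LFA1-lo for stromal and endothelial cells. It was 0.07 to 0.29 in LFA1-hi and 0 to 0.79 in LFA1-lo for T and NK cells, 0.58 to 0.74 in LFA1-hi and 0.29 to 3.18 in LFA1-lo for mast cells and basophils, and 0.67 to 0.97 in LFA1-hi and 0.35 to 1.49 in LFA1-lo for erythroid cells. The platelet list summed to 1231 to 1432 TPM in LFA1-hi and 1051 to 1469 TPM in LFA1-lo, nearly all of it from Pf4, and 1 of its 3 tested genes, Ppbp, fell.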

How the data were processed

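Total RNA was depleted of ribosomal RNA, per the labels' protocols, and sequenced in 6 libraries. Named in the submitters' processing notes are RSEM, Trim Galore, bcl2fastq and the build GRCm38; the sources used here do not give versions, the aligner or whether strand was used. Per the file headers, the authors deposited expected counts per gene on RefSeq transcripts, not normalized, TPM, which is corrected for length and scaled to the same total in each library, and a mean transcript length.

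Expected counts were rounded and filtered with filterByExpr (11692 genes left), scaled by TMM (factors 0.956 to 1.034) and tested in edgeR 4.0.16 (R 4.3.3) with robust quasi-likelihood fits on group alone, adjusted by Benjamini-Hochberg over all tested genes. Standard errors and 95% intervals are from that fit. The procedure was also run on simulated counts in which every gene had the same dispersion. No simulated library stood apart, so that run does not cover a case such as LFA1-lo replicate 2. DESeq2 1.42.0, limma 3.58.1, other scalings, no filter, log2 of TPM with 0.1 or 1 added, a threshold of 0.01, a replicate block and leaving out each library were alternatives. The genes and lists were chosen with earlier results of these data known. Every called gene, the most abundant gene of each family and the partners in a complex are named, and of the pathway lists the called genes with the largest change, at most 4 each way in each list; other genes were added to complete the families. All 59 symbols were matched to RefSeq (GRCm38.p6), which gave coordinates, counted from 1. The spans of 23 genes overlap that of another listed gene, so that their reads could be assigned to either. Of these, 9 were called, namely Dgkg, Dgkz, Inpp5a, Inpp5j, Inppl1, Pik3ca, Pik3cd, Pik3ip1 and Plcb1. Among the 9 only Inpp5a had counts that were not whole, and in the others no division of reads showed. Figures were drawn with matplotlib 3.10.9; Python 3.11.15 was used for all tables. Some marker genes are not reported here.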

Additional observations from a re-analysis of the deposited data

How the results depend on the processing

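Of the 20 calls among the phosphoinositide genes, 9 held under all 17 alternatives and the same number held when each library was left out in turn. None of the 20 changed direction. The count of genes called over the whole table was 2288 to 5032 without a library (1169 to 2589 higher, 1099 to 2443 lower), and 2024 at an adjusted p under 0.01 (1007 higher, 1017 lower), against 3705 in the report. Of the phosphoinositide genes, 9 to 24 were called without a library (1 to 4 higher, 8 to 20 lower), 9 at 0.01 (1 higher, 8 lower), and 2 rose on log2(TPM + 0.1). A fit without a library has fewer samples. Scaling by library totals alone raised the higher calls over all genes to 2294 and lowered the lower calls to 1471, against 1883 and 1822, and left 12 falls and 4 rises among the phosphoinositide genes.

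Estimates that were not called and lay near 0 changed sign with library totals, Dgkd (0.00027), Dgkq (0.059), Inpp1 (0.039), Inpp5d (0.012), Inpp5e (0.015) and Pip4k2c (0.041); with upper quartile scaling, Dgkq (0.0096); with no filter, Dgkq (0.0037); with the replicate block, Dgkq (0.0026) and Inpp1 (0.0011); with limma voom, Dgkq (0.0064) and Inpp1 (0.0015) (log2 fold changes); the cause was not tested. Over the fits without a library the sign changed at least once for genes whose values ranged as follows: Dgkd (−0.15 to 0.030), Dgkq (−0.10 to 0.095), Inpp1 (−0.21 to 0.11), Inpp4b (−0.34 to 0.30), Inpp5d (−0.19 to 0.058), Inpp5e (−0.16 to 0.058), Pik3cb (−0.43 to 0.11), Pik3cg (−0.032 to 0.33), Pip4k2c (−0.090 to 0.034), Plcd3 (−0.58 to 0.19) and Plcg1 (−0.21 to 0.16). No pairing by the replicate numbers of the labels showed in the counts. Deviations of same-numbered libraries correlated at −0.072 to 0.037, and no pair of them correlated best within its own number. With 3 libraries a group this cannot tell whether same-numbered libraries share a mouse or a dish. With the replicate block 3253 genes were called, 3 of the phosphoinositide genes higher and 14 lower. It ended the calls of Inpp5a (−0.45, adjusted p = 0.0805), Inpp5j (1.26, adjusted p = 0.063) and Pik3r6 (−0.44, adjusted p = 0.0653). Depth limits genes with few counts, such as Plcb1, Pik3ip1 and Inpp5j. With 3 libraries a group, outlying libraries were not tested for.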
